A study of Hipposideros armiger and Mus musculus with 20 samples.

Results

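A set of 5 genes that T lymphocytes use was followed through the fat libraries of mice and bats: Cd5, Trbc2, Lck, Ltb and Cd52. They were taken by name from a deposited expression table of 14871 genes, of which 14723 could be given a symbol, and all 5 members were found. The samples were pieces of adipose tissue, 8 from ICR mice and 12 from the great roundleaf bat (Hipposideros armiger, given in the labels as wild type), kept for 7 days at 30 °C or at 10 °C. In both species a brown depot between the shoulder blades (iBAT) and white fat under the skin (sWAT) were taken, and in the bat also white fat from inside the abdomen (aWAT). Each combination of species, depot and temperature had 2 libraries, 1 from females and 1 from males. The labels do not say whether a library is 1 animal or a pool, nor whether depots share animals, so p-values measure the spread between these libraries only. The sources used here give neither the age of the animals nor the exact place of the subcutaneous depot, and they do not say whether a lymph node was in the dissected tissue.

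T lymphocytes recognise peptides through a receptor of paired variable chains, each joined to a constant region, and the receptor signals through the CD3 proteins. Trbc2 encodes 1 of the constant regions of the receptor's beta chain. Lck encodes the kinase that travels with the coreceptors CD4 and CD8 and starts the signal, and Cd5 encodes a surface receptor that dampens it. Ltb encodes lymphotoxin beta, a membrane protein that joins lymphotoxin alpha, binds the lymphotoxin beta receptor on stromal cells and is needed for lymph nodes to form. Cd52 encodes a very short, heavily glycosylated peptide anchored by lipid to the surface of lymphocytes and some other white blood cells. Adipose tissue holds resident T lymphocytes among its fat cells, and some fat pads of the mouse enclose lymph nodes. Ltb and Cd52 are also used by B lymphocytes, and Cd5 by some of them.

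In the mouse assembly GRCm38 with GENCODE M21 genes, Cd5 (ENSMUSG00000024669) lies on the minus strand at chr19:10717116-10739002 and Lck (ENSMUSG00000000409) on the minus strand at chr4:129548344-129573641. Cd52 (ENSMUSG00000000682) lies on the minus strand at chr4:134082448-134095082. Ltb (ENSMUSG00000024399) lies on the plus strand at chr17:35194439-35196320, beside Tnf and Lta, and Trbc2 (ENSMUSG00000076498) on the plus strand at chr6:41546730-41548352. Which build and gene models the deposited values rest on is not given in the sources used here. Trbc2 has a near copy, Trbc1, on the same chromosome, which was not analysed here. The coding parts of the 2 genes share 498 of 521 bases (95.6%), with an identical run of 259 bases, so how reads were split between them is uncertain and Trbc2 values may hold reads of both. The last part of the coding sequence is printed for both because it holds 19 of the 23 differences; capitals mark the differing bases, and each line runs 5′ to 3′ over coding bases 399 to 518.
Trbc2: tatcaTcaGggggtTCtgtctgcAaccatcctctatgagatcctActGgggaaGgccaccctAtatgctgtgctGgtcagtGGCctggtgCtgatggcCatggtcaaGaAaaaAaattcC
Trbc1: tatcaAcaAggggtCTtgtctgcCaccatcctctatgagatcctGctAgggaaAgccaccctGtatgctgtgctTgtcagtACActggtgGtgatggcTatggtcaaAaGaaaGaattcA
The whole coding sequence of Cd52, only 225 bases and the shortest of the 5, is printed because this member had the highest FPKM in warm sWAT; capitals mark its start and stop codons.
Cd52: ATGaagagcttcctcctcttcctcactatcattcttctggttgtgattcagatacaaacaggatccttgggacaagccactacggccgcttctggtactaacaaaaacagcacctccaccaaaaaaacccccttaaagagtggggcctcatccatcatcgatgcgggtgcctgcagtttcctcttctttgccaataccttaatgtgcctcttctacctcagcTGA

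Levels are FPKM as deposited: sequenced fragments divided by transcript length and by library size. Summed FPKM ran from 263338 to 305098 in the mouse and from 294103 to 358510 in the bat libraries. Read totals are unknown, and whole fragments could not be recovered. Of the genes under 0.3 FPKM in a mouse library and in the warm female iBAT library, at most 27.2% to 34.1% had values whose quotient lay within 0.5% of that of 2 integers no larger than 5, at relative depths of 0.951 to 1.11, so these depths are rough. In mouse sWAT Ucp1, the heat-producing uncoupling protein, had 1.19 and 1.53 FPKM at 30 °C and 1229 and 2977 FPKM at 10 °C. Mouse sWAT libraries stood apart in markers of other tissues: the male library at 10 °C had 1350 summed FPKM of 8 skeletal muscle genes against 7.35 to 24.7 in the other 3, and the female libraries had 126 and 58.4 summed FPKM of 4 epithelial genes against 1.52 and 0.107 in the males. Since the tissue was sequenced in bulk, fewer T lymphocytes and less of each transcript per cell cannot be told apart.

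T lymphocyte genes were abundant in warm subcutaneous fat and low in brown fat. Cd5 had 36.2 FPKM in the female and 40.7 in the male sWAT library at 30 °C, against 0.0275 and 0.114 FPKM in iBAT. Trbc2 had 333 and 342 FPKM in sWAT against 1.71 and 1.21 in iBAT. Lck had 93.7 and 96.4 FPKM in sWAT against 0.580 and 0.432 in iBAT. The kinase thus lay below 1 FPKM in both brown fat libraries and near 95.1 FPKM on average in white fat. Ltb had 188 and 193 FPKM in sWAT against 1.07 and 1.03 in iBAT. Cd52 had 736 and 655 FPKM in sWAT, the highest levels of the 5, against 7.66 and 4.92 in iBAT. For each of the 5 genes both sWAT libraries lay far above both iBAT libraries, and the female and male sWAT libraries differed by 2.56% to 11.7% of their mean. Of all 10689 genes tested 5126 were called higher in sWAT by the test below, and how many lay apart was not counted.

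These depot differences were tested with limma on log2(FPKM + 1), a scale that understates the change of genes with low values. Changes are given ± the standard error and relative to the median of all genes tested, while the calls are those of the change before that shift. Of the 5 members 5 were called higher in sWAT than in iBAT at 30 °C, beside 48% of all genes tested. The log2 differences were 4.63 ± 0.90 for Cd5, 6.54 ± 1.31 for Trbc2, 5.42 ± 1.17 for Lck, 5.97 ± 1.31 for Ltb and 6.03 ± 0.98 for Cd52. Their adjusted p-values lay between 0.00286 and 0.00662 (limma, Benjamini-Hochberg over 10689 genes). All 5 stayed called when any 1 of the 8 mouse libraries was left out. The median shift of all genes was 0.57 in this comparison, far below the values of the members.

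**Figure D1:**
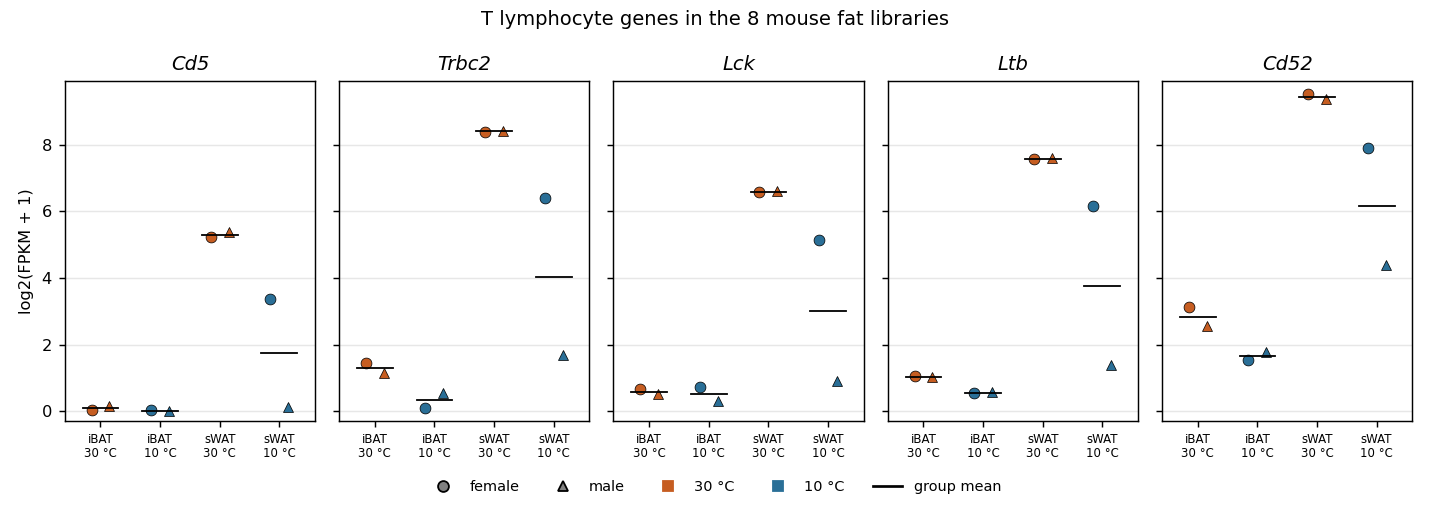
Level of each of the 5 genes as log2(FPKM + 1) in the 8 mouse libraries, by depot and temperature; circles are female and triangles male libraries, and bars are means of the 2 log values of a group. The sWAT libraries at 30 °C lie highest in every panel, the 2 sWAT libraries at 10 °C lie far apart, and the iBAT libraries lie near the bottom at both temperatures.

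The label of T lymphocytes was checked against the defining genes of the receptor complex. Cd3e, a signalling subunit of the receptor, had 36.5 and 40.3 FPKM in warm sWAT and at most 0.171 FPKM in iBAT, where it was listed at 0 in the cold female library. Trac, the constant region of the alpha chain, had 193 and 193 FPKM in warm sWAT and at most 0.984 in iBAT. Cd4 and Cd8b1, coreceptors of helper and cytotoxic cells, had 31.3 and 27.1 and 32.5 and 40.6 FPKM in warm sWAT, so both classes of T lymphocyte genes were present. Cd3d, Cd3g, Cd2 and Zap70 were not analysed here. Of 45 genes on 3 lists of T lymphocyte genes (receptor complex, signalling, and transcription factors with homing receptors), which include 4 of the 5 members, 43 were called higher in sWAT than in iBAT at 30 °C and 1 lower, beside 48% of all genes called higher, with a median log2 difference of 3.52 against 0 for all genes. Below 1 FPKM in all 4 iBAT libraries were 35 of the 45.

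After 7 days at 10 °C the members were lower in both sWAT libraries, but by very different amounts. Cd5 had 9.36 FPKM in the cold female and 0.10 in the cold male library, or 24.4% and 0.261% of the mean of the 2 warm libraries. Trbc2 had 83.7 and 2.19 FPKM, or 24.8% and 0.650%. Lck had 33.9 and 0.890 FPKM, or 35.6% and 0.936%. For these 3 genes the cold female library thus kept 24.4% to 35.6% of the warm level, and the cold male library under 1%. Ltb had 70.3 and 1.61 FPKM, or 36.9% and 0.845%. Cd52 had 238 and 19.9 FPKM, or 34.2% and 2.87%, the largest share left in the male library. No cold library overlapped with the warm ones for any of the 5. Of all 10689 genes tested 7800 had a negative change before the median shift, and the share without overlap was not counted. Within females the warm level was 3.87-fold (Cd5), 3.98-fold (Trbc2), 2.77-fold (Lck), 2.67-fold (Ltb) and 3.10-fold (Cd52) the cold one, and within males 405-fold, 156-fold, 108-fold, 120-fold and 32.8-fold.

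With limma, 3 of the 5 members were called lower in sWAT at 10 °C than at 30 °C, beside 26.8% of all genes tested. Of 10689 genes 755 were called higher and 2867 lower, a split that median-ratio scaling turned to 1105 and 968. Less the median of all genes, which was −0.37, the log2 changes of the members were −3.18 ± 0.90 for Cd5 (adjusted p = 0.0299), −4.0 ± 1.31 for Trbc2 (adjusted p = 0.0439) and −2.93 ± 0.98 for Cd52 (adjusted p = 0.0430). Lck (−3.20 ± 1.17, adjusted p = 0.0544) and Ltb (−3.45 ± 1.31, adjusted p = 0.0623) missed the threshold. With sex as a replicate block 4 were called, Lck among them (adjusted p = 0.0403). Without the cold male library the changes ran from −1.17 (Ltb) to −1.74 (Trbc2), and without the cold female library from −4.59 (Cd52) to −6.26 (Trbc2). In these fits the lone cold library was assumed to vary like the other groups. Without any 1 of the other 6 libraries, in brown fat or in warm sWAT, none of the 5 was called, and with the 4 sWAT libraries alone none was called either.

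**Figure D2:**
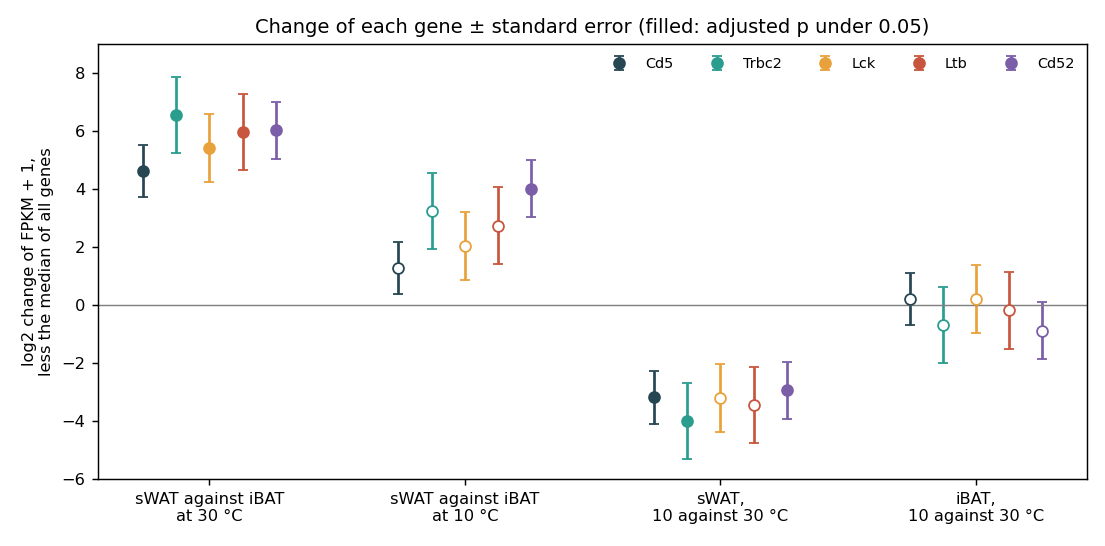
Fitted log2 change of each of the 5 genes with its standard error, relative to the median of all genes, in 4 comparisons of the mouse libraries; filled points have an adjusted p under 0.05 (limma). All 5 are filled for sWAT against iBAT at 30 °C, 3 are filled for the cold change in sWAT, 1 for sWAT against iBAT at 10 °C and none for the cold change in iBAT.

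The other T lymphocyte genes showed the same split between the cold libraries. Of the 45 list genes, 37 were called lower in cold sWAT, 0 higher, and 8 were not called, beside 26.8% of all genes called lower, with a median log2 change of −2.31. In the cold female library they had a median of 31.9% of the warm mean, and in the cold male library 1.83%, against 78.9% and 65% for 10346 genes with a warm mean of at least 1 FPKM. Below 10% of the warm mean in the cold male library were 37 of the 45, and 27 lay under 1 FPKM there, against 1 in the cold female library. Without the cold male library 40 of the 45 were called lower, and without the cold female library 43. Leaving out 1 of the warm sWAT libraries left 0 (female) or 6 (male) calls, leaving out 1 iBAT library left 16, and the fit of the 4 sWAT libraries alone gave 0. The number of all genes called also moved widely between these fits, so these counts say little about the lists alone. The lists were drawn up with earlier results of the same data known, so they are no independent evidence of a direction.

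Of 14 measured genes of the receptor complex and its coreceptors 11 were called lower, beside the same 26.8% of all genes (median −2.56). Cd3e (−2.92 ± 0.96), Cd4 (−2.80 ± 0.88) and Cd247, the zeta chain of the receptor (−2.32 ± 0.64), fell. Cd3e had 12.3 and 0.225 FPKM in the cold female and male libraries, Cd4 had 8.80 and 0.148, and Cd247 had 14.3 and 2.17. Trac had 62.3 and 1.09 FPKM (−3.71 ± 1.36, adjusted p = 0.0567), and Cd8b1 had 18.3 and 0.152 (−2.62 ± 1.13, adjusted p = 0.0794); neither was called. Thy1, a surface protein of T lymphocytes that fibroblasts and nerve cells also carry, kept more of its level, with 67.6 and 19.9 FPKM against 119 and 108 when warm (−1.23 ± 0.53, adjusted p = 0.0573). Cd6, a relative of Cd5 that is its neighbour on chromosome 19 at chr19:10789341-10830058, had 19.7 and 18.9 FPKM when warm and 4.34 and 0.120 in the cold.

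Of 14 signalling genes, which include Lck and Cd52, 13 were called lower, beside 26.8% of all genes (median −2.33). Lat, the membrane scaffold that the receptor's kinases phosphorylate, had 96.0 and 99.6 FPKM when warm and 31.6 and 1.06 in the cold (−3.23 ± 1.10). Prkcq, Skap1 and Sit1, a protein kinase C and 2 adaptors, fell with changes of −2.02 to −2.42. Fyn, a kinase related to Lck that many cells use, had 43.2 and 38.2 FPKM when warm and 20.4 and 8.18 in the cold (−1.21 ± 0.38), so that 20.1% was left in the cold male library.

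Of 17 transcription factors and homing receptors 13 were called lower, beside 26.8% of all genes (median −1.66). Tcf7, a factor of naive and memory T lymphocytes, fell from 56.2 and 60.8 to 15.5 and 0.185 FPKM (−3.38 ± 1.05). Ccr7, a chemokine receptor that guides lymphocytes into lymph nodes, had 74.1 and 80.0 FPKM when warm and 25.3 and 0.132 in the cold (−3.47 ± 1.25, adjusted p = 0.0541). Ets1 (−1.43 ± 0.34) and Il2rg, a subunit shared by several cytokine receptors (−2.26 ± 0.77), fell as well.

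**Figure D3:**
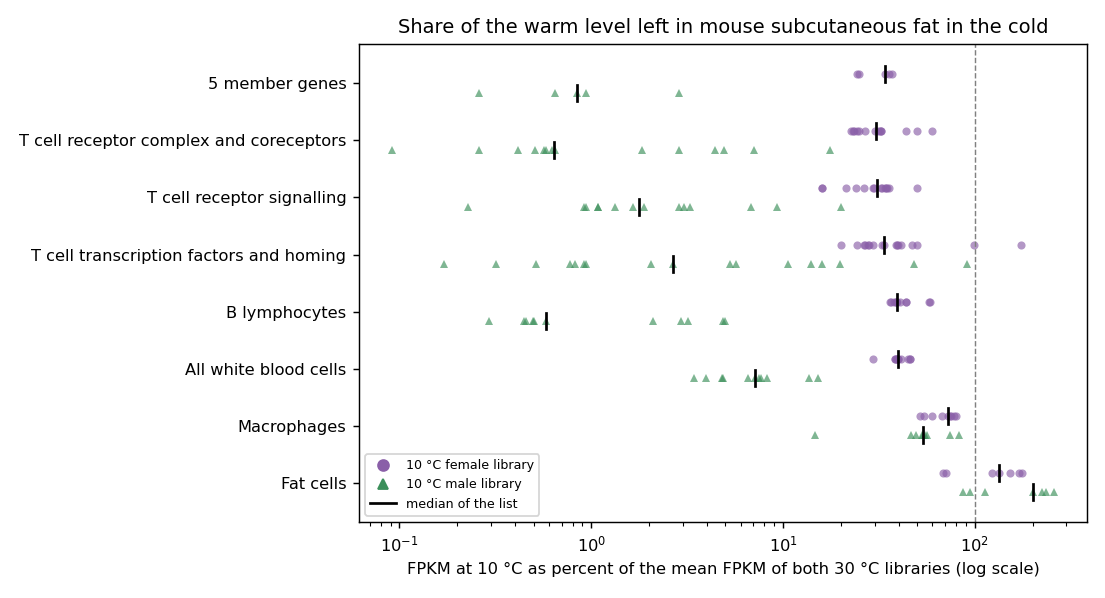
FPKM in the 2 sWAT libraries at 10 °C as a percent of the mean of the 2 libraries at 30 °C, for the 5 genes and 7 gene lists, on a log axis; circles are the female and triangles the male library, black bars are medians, and genes at 0 cannot be drawn. The T and B lymphocyte lists have medians of 30.6% to 39.2% in the female and 0.582% to 2.68% in the male library, whereas macrophage genes have 72.1% and 53.5%.

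Around Ltb, itself a ligand gene that was not called, Lta and Tnf were called lower in cold sWAT and the receptor genes Ltbr and Tnfrsf1a were not. Another receptor gene of the list, Tnfrsf14, fell from 8.18 and 8.65 FPKM in the warm libraries to 2.24 and 2.31 in the cold ones. The genes thus did not split into ligands and receptors. Lta, the partner of lymphotoxin beta, fell from 14.0 and 14.3 to 5.00 and 0.429 FPKM (−2.0 ± 0.60), and Tnf, the related cytokine gene between them, from 6.53 and 5.59 to 2.03 and 0.297 (−1.46 ± 0.38). Ltbr, the receptor, had 21.1 and 20.4 FPKM when warm and 27.4 and 26.3 in the cold (0.72 ± 0.12, adjusted p = 0.0537), and Tnfrsf1a, a receptor for Tnf and lymphotoxin alpha, had 49.8 and 49.5 against 48.3 and 54.2 (0.41 ± 0.12, adjusted p = 0.796). Nfkb2, a transcription factor subunit downstream of the receptor, fell from 35.0 and 28.5 to 17.0 and 4.44 FPKM (−1.36 ± 0.50), and its partner Relb had 26.4 and 24.9 against 17.8 and 5.28 (−0.93 ± 0.46, adjusted p = 0.0666). Of the 13 genes of the pathway 9 were called lower and 0 higher, beside 26.8% of all genes called lower (median −1.16). At 30 °C 13 of 13 were called higher in sWAT than in iBAT, beside 48% of all genes, although Ltbr and Tnfrsf1a lay below the median shift of all genes there.

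Summed markers of several other white blood cells were also lowest in the cold male library among the mouse sWAT libraries. Their calls in cold sWAT are read beside the 26.8% of all genes called lower. Of 11 B lymphocyte genes 3 were called lower, a share near that of all genes, with a median of −2.86, and their summed level went from 643 and 570 FPKM in the warm female and male libraries to 249 and 5.6 in the cold ones, with 2.05 to 5.49 in iBAT. Of 9 plasma cell genes 4 were called lower (median −3.31), with sums of 12717, 2631, 1308 and 99.9 FPKM in the same order. Of 11 genes of all white blood cells 10 were called lower (median −2.02), among them Coro1a, an actin regulator (−2.69 ± 0.95), with sums of 1245, 1176, 494 and 79.2 FPKM. Of 8 genes of natural killer and cytotoxic cells 4 were called lower (median −0.87), with sums over 9 genes of 585, 377, 235 and 17.3 FPKM. Ccl5 alone had 500, 315, 201 and 3.01 FPKM of these sums. In the cold male library the 8 genes kept 0.740% (Ccl5) to 83.5% (Ncr1) of the warm mean. Their median there was 12.5%, and 3 of the 8 kept under 10%. Ncr1 had 6.54 and 3.15 FPKM when warm and 2.71 and 4.04 in the cold. Of 7 genes of lymph node stroma and homing 3 were called lower (median −0.79), and the sum over 8 genes went from 100.2 and 88.9 to 50.1 and 16.9 FPKM, with 2.5 to 5.33 in iBAT. Most of the warm sum came from Fcer2a (45.8 and 41.5 FPKM) and Cxcr5 (22.4 and 17.3). In the cold Fcer2a had 21.2 and 0.138 FPKM and Cxcr5 7.34 and 0.179. The vessel genes Lyve1 and Flt4 kept their level, with 81.8% and 90.7% and with 111% and 87.4% of the warm mean in the cold female and male libraries. Chst4, a sulfotransferase of the vessels by which lymphocytes enter lymph nodes, fell from 6.73 and 4.44 to 1.82 and 0 FPKM (−1.58 ± 0.46) and was listed at 0 in all 4 iBAT libraries, while Ccl21a, Ccl19 and Glycam1 were not analysed here. The part of these cells and of lymph node tissue in the change of the members was not tested.

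Lists of other cells gave the following counts beside the same 26.8%. Of 9 macrophage genes Csf1r alone, a growth factor receptor of macrophages, was called lower (−0.26 ± 0.16), the median was −0.26, and the sums were 529, 357, 322 and 225 FPKM. Of 9 genes of dendritic cells and antigen presentation 5 were called lower and 1 higher (median −1.34). Of 7 fat cell genes 0 were called, with sums of 1500, 3579, 2815 and 3857 FPKM. Of 8 muscle genes 1 was called higher (median 3.06) and of 4 epithelial genes 0. The high muscle level of the cold male library goes with the lowest level of the members there, and its part in the result was not tested. In brown fat the warm libraries had 1543 and 1276 summed FPKM of muscle genes and the cold ones 24.4 and 728, and the members were low in all 4.

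**Figure D4:**
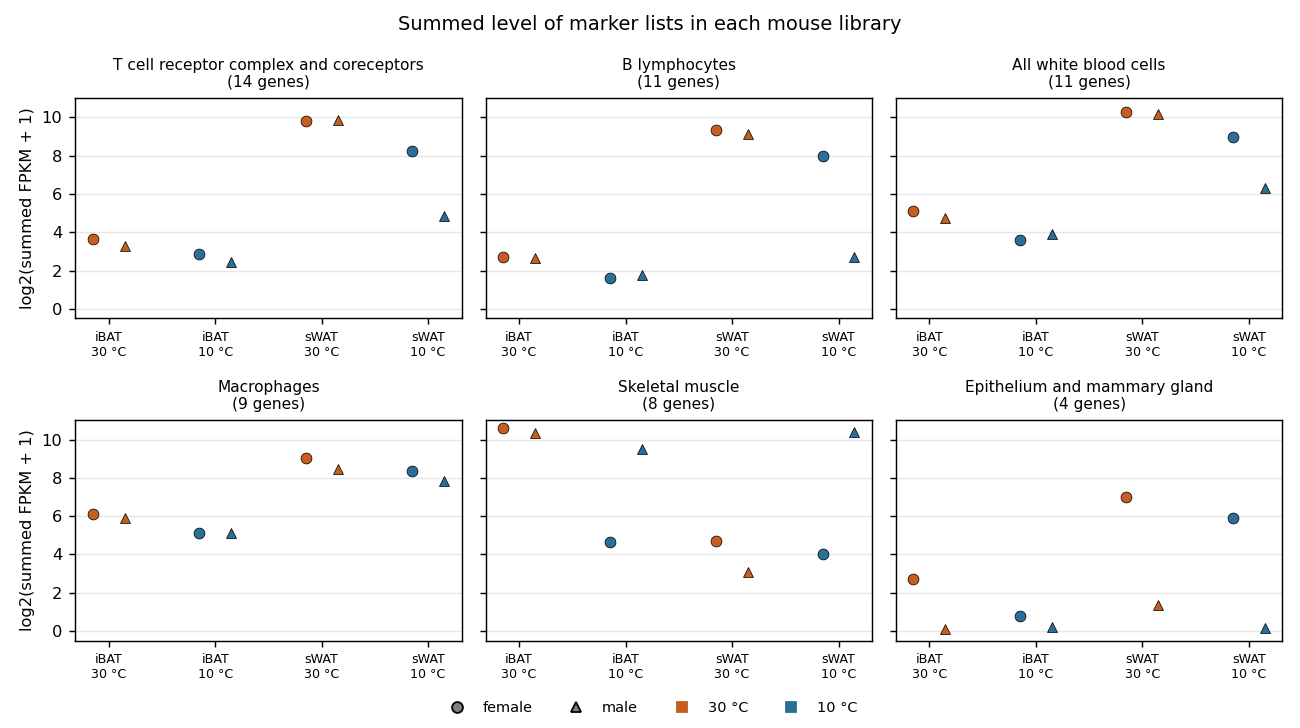
Summed FPKM of 6 marker lists in the 8 mouse libraries as log2(sum + 1), with circles for female and triangles for male libraries. In the male sWAT library at 10 °C the T receptor and B lymphocyte sums lie at 28.2 and 5.6 FPKM. There the macrophage sum lies at 225 FPKM, against 529 and 357 in the warm sWAT libraries, and muscle genes reach 1350 FPKM.

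The proportions of the members to each other differed between the sWAT libraries. Cd52 stood at 221% and 192% of the FPKM of Trbc2 in the warm sWAT libraries, at 284% in the cold female and at 909% in the cold male library. In iBAT it stood at 448% and 407% of Trbc2 when warm. Cd5 stood at 10.9% and 11.9% of Trbc2 in warm sWAT, at 11.2% in the cold female and at 4.58% in the cold male library, where its level was 0.10 FPKM. Lck stood at 28.1% and 28.2% of Trbc2 when warm and at 40.5% and 40.6% in the cold female and male libraries. Ltb stood at 56.4% and 56.6% when warm and at 84.0% and 73.5% in the cold. Relative to Trbc2, Lck and Ltb were thus higher in both cold libraries, while Cd5 was lower in the cold male one alone. Against Ptprc, the surface phosphatase of all white blood cells, Trbc2 stood at 616% and 539% in warm sWAT, at 312% in the cold female and at 77.1% in the cold male library. Relative to Ptprc, Trbc2 was thus lower in both cold sWAT libraries than in either warm one, and this ratio was not tested.

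In brown fat the members were low at both temperatures, and no change was called. Cd5 had 0.0265 and 0 FPKM at 10 °C, Trbc2 0.0693 and 0.470, Lck 0.641 and 0.224, Ltb 0.452 and 0.497, and Cd52 1.92 and 2.42. For Cd5, Trbc2, Ltb and Cd52 both cold iBAT libraries lay below both warm ones, for Cd5 by a margin of 0.0265 against 0.0275 FPKM, and for Lck the libraries overlapped. In iBAT 8195 of all 10689 genes had a negative change before the median shift, and how many lay apart was not counted. With limma 0 of the 5 were called lower, beside 11.2% of all genes, and 0 had an unadjusted p under 0.05. The changes were 0.22 ± 0.90 for Cd5, −0.67 ± 1.31 for Trbc2, 0.21 ± 1.17 for Lck, −0.18 ± 1.31 for Ltb and −0.88 ± 0.98 for Cd52, with adjusted p-values of 0.444 to 0.973; the sign of Cd5 turned with median-ratio scaling and with a pseudocount of 0.1. The wide spread of the cold sWAT libraries enters these errors. With the iBAT libraries alone 3 members passed the filter and were called lower by limma, beside 2749 of all 9003 genes tested in that fit. They were Cd52 (−0.84 ± 0.23, adjusted p = 0.0154), Trbc2 (−0.63 ± 0.21, adjusted p = 0.0213) and Ltb (−0.14 ± 0.14, adjusted p = 0.0431). Without 1 library at a time their changes ran from −1.115 to −0.67 for Cd52, −0.93 to −0.42 for Trbc2 and −0.23 to −0.13 for Ltb. Of the 45 T lymphocyte genes 0 were called in brown fat with all 8 libraries in the fit, and 1 had an unadjusted p under 0.05, as did 3588 of all 10689 genes.

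At 10 °C the depots still differed in order but less in size. The cold male sWAT library lay above all 4 iBAT libraries for Trbc2, Lck, Ltb and Cd52, while Cd5 at 0.10 FPKM lay within their range. How many of all genes lay above in that library was not counted. With limma 1 of the 5 was called higher in sWAT than in iBAT at 10 °C, beside 27.6% of all genes. It was Cd52 (4.02 ± 0.98, adjusted p = 0.0208), and the others had 1.27 ± 0.90 (Cd5), 3.25 ± 1.31 (Trbc2), 2.05 ± 1.17 (Lck) and 2.74 ± 1.31 (Ltb), with adjusted p-values of 0.0706 to 0.170. Without the cold male sWAT library the differences ran from 2.78 (Cd5) to 5.66 (Cd52), and without the cold female one from −0.22 (Cd5) to 2.39 (Cd52). Of the 45 T lymphocyte genes 10 were called higher, beside the same 27.6%, and this count moved widely without 1 library.

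Whether the cold change itself differed between the depots was tested with an interaction term. With limma 0 of the 5 members were called, beside 0.0936% of all genes. The differences of the changes (sWAT minus iBAT) were −3.42 ± 1.27 for Cd5, −3.35 ± 1.85 for Trbc2, −3.43 ± 1.65 for Lck, −3.29 ± 1.86 for Ltb and −2.07 ± 1.39 for Cd52, with adjusted p-values of 0.206 to 0.415. Cd5 alone had an unadjusted p under 0.05 (0.0311). Of the 45 T lymphocyte genes 0 were called and 29 had an unadjusted p under 0.05, as did 2194 of all 10689 genes. Without the cold female sWAT library the differences ran from −3.71 (Cd52) to −5.6 (Trbc2), and without the cold male one from −0.43 (Cd52) to −1.91 (Cd5). The size of the difference between depots thus depended on which library stood for cold sWAT.

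The 2 cold sWAT libraries also differ in sex, and with 1 library of each sex per group a difference of the cold change between the sexes could not be tested apart from a difference between libraries. A term for sex over all 8 mouse libraries called 0 of the 5 members, beside 0% of all genes by limma, with 1425 of 10689 genes but 0 of the 5 at an unadjusted p under 0.05. The male minus female differences were −0.63 ± 0.61 for Cd5, −1.02 ± 0.88 for Trbc2, −1.07 ± 0.74 for Lck, −1.06 ± 0.87 for Ltb and −0.89 ± 0.62 for Cd52. Without either of the cold sWAT libraries the values were 0.15 for Cd5, 0.14 for Trbc2 and 0.09 for Ltb, so their sign turned.

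Across the 8 mouse libraries the 5 members ran almost in parallel, with Pearson's r of 0.965 (Cd5 and Cd52) to 0.998 (Lck and Ltb) on log2(FPKM + 1). The points are the same 8 libraries for every gene, with the warm and the cold female sWAT libraries high for the members, and 1002 of 8154 genes that reach 5 FPKM had a mean r over 0.95 with the 5. Most like the members was Ptprcap, a partner protein of the white blood cell phosphatase (mean r 0.995), with 67.6 and 71.4 FPKM in warm sWAT, 26.2 and 1.12 in cold sWAT and at most 0.517 in iBAT. Then followed Tbc1d10c and Acap1, regulators of small GTPases, Tnfrsf18, a costimulatory receptor of T lymphocytes also known as GITR, and Napsa, an aspartic protease. Dok3, an adaptor of B lymphocytes and myeloid cells, Lat, Limd2, Degs2 and Sash3, an adaptor of lymphocytes, completed the 10, with mean r down to 0.993.

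In the bat the same genes were read at low levels, under mouse gene identifiers. How bat reads were assigned to these identifiers is not given in the sources used here, so levels were not compared between species and a value near 0 was not taken as absence. Lck was listed at 0 in 9 of the 12 bat libraries and reached 0.0375 FPKM, and Cd5 reached 1.16 FPKM. Neither had 1 FPKM in 2 libraries, the filter for testing, so 3 of the 5 were tested. Trbc2 ran from 0.747 to 10.5 FPKM (median 2.29), Ltb from 0.229 to 1.98 (median 0.802) and Cd52 from 0.690 to 20.5 (median 2.39). The warm female aWAT library was the highest for Cd5, Trbc2 and Cd52.

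In bat aWAT, Trbc2 had 10.5 and 3.49 FPKM in the female and male libraries at 30 °C and 1.26 and 2.68 at 10 °C. Cd52 had 20.5 and 5.58 FPKM when warm and 1.48 and 1.07 in the cold. Ltb had 1.89 and 0.789 against 0.539 and 0.848, so that its groups overlapped, while those of Trbc2 and Cd52 did not. How many of all genes lay apart was not counted. With limma 2 of the 3 tested members were called lower, beside 6.67% of all genes. They were Cd52 (−2.26 ± 0.48, adjusted p = 0.00958) and Trbc2 (−1.18 ± 0.39, adjusted p = 0.0487), and Ltb was not (−0.29 ± 0.25, adjusted p = 0.263). Without the warm female library Cd52 had −1.44 (adjusted p = 0.0491) and Trbc2 −0.54 (adjusted p = 0.310), and without the cold female library neither was called (adjusted p = 0.0574 and 0.303). The call of Trbc2 was also lost with sex as a replicate block (adjusted p = 0.0568) and under each of the 4 other alternative settings (adjusted p = 0.0523 to 0.124), and without any 1 library of the other 2 depots (adjusted p = 0.0614 to 0.0684). Of 17 T lymphocyte genes tested, which include Cd52 and Trbc2, 4 were called lower and 0 higher (median −0.47), beside the same 6.67%. Apart from these members, the calls were Gata3 (−0.78 ± 0.26, adjusted p = 0.0432) and Il2rg (−0.90 ± 0.30, adjusted p = 0.0464, limma). Cd3e had 5.71 and 1.57 FPKM when warm and 0.979 and 1.76 in the cold, with overlap.

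In bat sWAT the values ran the other way without a call. Trbc2 had 2.05 and 2.30 FPKM at 30 °C and 3.8 and 3.64 at 10 °C, and Ltb 0.814 and 0.924 against 1.34 and 1.98. For both genes the cold libraries lay above the warm ones. The share of all genes that did so was not counted. Cd52 had 2.53 and 4.30 FPKM when warm and 4.07 and 5.09 in the cold, with overlap. With limma 0 of the 3 were called, beside 1.02% of all genes, with changes of 0.51 ± 0.39 (Trbc2), 0.43 ± 0.25 (Ltb) and 0.29 ± 0.48 (Cd52) and adjusted p-values of 0.516 to 0.852, and 0 had an unadjusted p under 0.05. Other markers moved in these libraries too. Muscle genes summed to 9.63 and 2.14 FPKM when warm and 167 and 338 in the cold. The median change was 0.31 for the T lymphocyte genes, 0.65 for genes of all white blood cells and 1.07 for macrophage genes. Their part in the change of the members was not tested. In bat iBAT, Trbc2 had 1.43 and 2.29 FPKM when warm and 0.747 and 0.792 in the cold, Ltb 0.360 and 0.490 against 0.229 and 0.241, and Cd52 2.09 and 2.25 against 1.88 and 0.690. All cold libraries lay below the warm ones, yet 0 of the 3 were called, beside 2.2% of all genes, with changes of −0.57 ± 0.39, −0.10 ± 0.25 and −0.42 ± 0.48 and 0 at an unadjusted p under 0.05. In bat iBAT 6625 of 11025 genes had a negative change before the median shift, and how many lay apart was not counted.

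**Figure D5:**
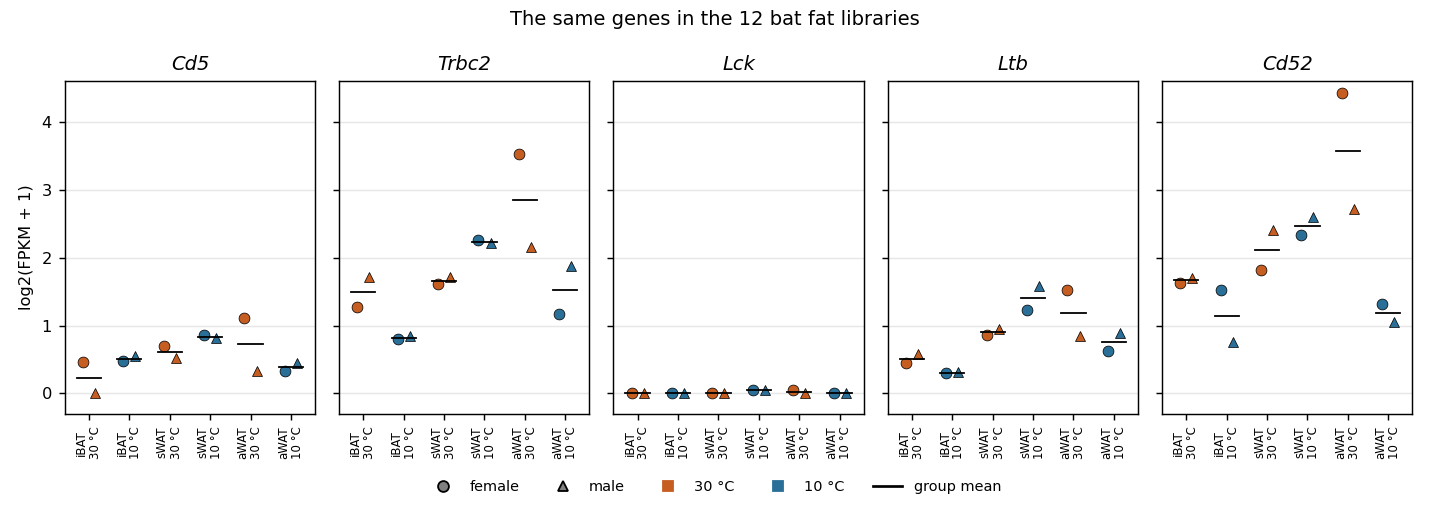
Level of the same genes as log2(FPKM + 1) in the 12 bat libraries, by depot and temperature, with circles for female and triangles for male libraries and bars for the mean of the 2 log values of a group. Cd52 and Trbc2 reach 20.5 and 10.5 FPKM in the female aWAT library at 30 °C, and Lck stays at or near 0 in every library.

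Whether the cold change differed between bat depots was tested after these directions were seen. The change in sWAT exceeded that in aWAT by 2.56 ± 0.67 for Cd52 (adjusted p = 0.0501), 1.70 ± 0.56 for Trbc2 (adjusted p = 0.0902) and 0.74 ± 0.35 for Ltb (adjusted p = 0.170). With limma 0 of the 3 were called, beside 4.41% of all genes, though 3 had an unadjusted p under 0.05, and without the warm male aWAT library 2, Cd52 and Trbc2, were called. Against iBAT the differences were 0.71 ± 0.67, 1.08 ± 0.56 and 0.54 ± 0.35 for Cd52, Trbc2 and Ltb, and 0 of the 3 were called, beside 0.571% of all genes, with 1 (Trbc2) at an unadjusted p under 0.05.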

How the data were processed

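The authors deposited FPKM values for 20 libraries in 1 table, and the submitters' processing notes list CASAVA 1.8 with no role. The sources used here do not give the aligner, genome build, gene models or read totals. RNA was extracted with a kit for lipid-rich tissue and sequenced on an Illumina instrument, per the labels' protocols. Genes were matched by Ensembl identifier to symbols (14723 matched, 148 did not). From the FPKM, log2(FPKM + 1) was fitted with limma 3.58.1 in R 4.3.3, as means of the groups over the 8 mouse or the 12 bat libraries with no term for sex (apart from the comparison of the sexes), a mean-variance trend and, as a filter, genes that reach 1 FPKM in 2 or more libraries of that species. Tests were two-sided, adjusted by Benjamini and Hochberg over all genes tested, and called at an adjusted p under 0.05. Permutation of 2 against 2 libraries cannot reach that threshold and was not used. Where the libraries of 2 groups are said to lie apart, the share of all genes doing so was not counted. The code was tested on simulated data.

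The 5 members and the 14 gene lists were chosen with earlier results of these data known. Named are the members, up to 6 genes of each T lymphocyte list and up to 4 of other lists with the highest mean FPKM over the mouse libraries, and the 10 genes most correlated with the members. Cd6, Lta, Tnf, Cd3e in the bat, Chst4, Ptprc and Ucp1 were added after their values were seen. Some genes that this rule gives are not reported here, and they stay in the counts of their lists. The coordinates and sequences come from GENCODE M21. Alternatives were another pseudocount, no filter, median-ratio scaling, sex as a block, fits of the compared libraries alone and leaving out each library.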

Additional observations from a re-analysis of the deposited data

Results flagged for a closer look

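Trbc2 moved in opposite directions in the cold in bat depots, with both cold libraries above both warm ones in sWAT and below them in aWAT and iBAT. The cold change in bat sWAT minus that in aWAT was 1.70 (limma, adjusted p = 0.0902), and minus that in iBAT 1.08 (adjusted p = 0.418). Ltb was likewise higher in both cold libraries of bat sWAT and lower in both of bat iBAT, a difference of 0.54 (adjusted p = 0.466). None of these 3 differences passed the threshold. Both cold bat sWAT libraries also had higher sums of muscle and macrophage genes than both warm ones, and their part was not tested. The share of all genes with such opposite moves was not counted. Between species, Trbc2 and Ltb were lower in both cold sWAT libraries of the mouse and higher in both of the bat. The change in bat sWAT minus that in mouse sWAT was 4.5 for Trbc2 and 3.88 for Ltb, on log2(FPKM + 1) relative to the median of all genes of each species. The difference between species was not tested.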

How the results depend on the processing

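The higher level of the members in warm sWAT than in iBAT kept all 5 calls under each alternative run, and 42 to 44 of the 45 T lymphocyte genes were called higher; the genes called in all numbered 3564 to 6837 without 1 library. The cold comparison of mouse sWAT was less stable. Its members called went from 3 to 1 with a pseudocount of 0.1, with no filter or with median-ratio scaling, and to 0 with the sWAT libraries alone, and the genes called from 3622 to 2073 with median-ratio scaling (1105 higher and 968 lower, against 755 and 2867) and, by limma, to 0 with the sWAT libraries alone (3665 at an unadjusted p under 0.05). The T lymphocyte genes called went from 37 to 22 with the pseudocount of 0.1, 24 with median-ratio scaling and 0 with the sWAT libraries alone. Without 1 library each, the ranges were 0 to 5 members, 0 to 43 T lymphocyte genes and 125 to 5035 genes. The cause of these shifts was not tested. Median-ratio scaling also turned the genes called higher and lower from 304 and 1202 to 617 and 493 in mouse iBAT, from 5126 and 1144 to 2786 and 2035 for sWAT against iBAT at 30 °C, from 2946 and 248 to 1126 and 928 at 10 °C, and from 135 and 108 to 157 and 63 in bat iBAT. In mouse iBAT, 3 members and 3324 genes were called with the iBAT libraries alone, and 0 to 3 members and 1 to 2616 genes without 1 library; Cd5 turned to −0.12 with a pseudocount of 0.1 and to −0.0016 with median-ratio scaling. For sWAT against iBAT at 10 °C, 2 members were called with a pseudocount of 0.1, 0 members, 5 T lymphocyte genes and 1558 genes with the cold libraries alone, 2054 genes with median-ratio scaling, and 0 to 5 members, 0 to 44 T lymphocyte genes and 361 to 4861 genes without 1 library, where Cd5 ran from −0.22 to 2.78. The interaction of cold and depot had 10 genes called, 6 with no filter, 3 with median-ratio scaling, 0 to 1628 without 1 library, with 0 to 5 members. The sexes had 3 genes called in the sWAT libraries alone and 0 to 2 without 1 library, where Cd5 ran from −0.92 to 0.15, Trbc2 from −1.53 to 0.14 and Ltb from −1.46 to 0.093.

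In the bat, sWAT had 176 genes called with no filter, 54 with its own libraries alone and 22 to 117 without 1 library, and Cd52 ran from −0.023 to 0.62. Bat aWAT had 1 member called in place of 2 under each of 5 alternatives (pseudocount, filter, scaling, block, its libraries alone), 776 genes with its libraries alone, and 0 to 2 members and 467 to 1779 genes without 1 library, with Ltb from −0.62 to 0.014. Bat iBAT had 5 to 247 genes called without 1 library. The difference between bat sWAT and aWAT had 65 to 790 genes and 0 to 2 members called, and that between sWAT and iBAT 31 genes with a pseudocount of 0.1 and 9 to 60 without 1 library.

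Sex as a replicate block was an alternative, since the numbers name sex only: differences between female and male libraries correlated between groups with r from −0.017 to 0.466 in the mouse (4 of 6 pairs of groups over 0.1) and from −0.192 to 0.547 in the bat. With the block, 4 members were called in cold mouse sWAT (Lck at adjusted p = 0.0403) of 4440 genes, 6 genes in the interaction, and Trbc2 in bat aWAT had adjusted p = 0.0568. Groups of 2 libraries and FPKM without read totals limit these results: no counting error could be given, and values under 1 FPKM carry little weight.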

Other observations

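Among the genes of antigen presentation, H2-Eb1 encodes the beta chain of a class II molecule that shows peptides to T lymphocytes. It went the opposite way to H2-Aa and Cd74 (chosen after the values were seen). It had 32.0 and 29.1 FPKM in the warm female and male sWAT libraries of the mouse and 142 and 52.6 in the cold ones (1.84 ± 0.41, adjusted p = 0.0369, limma). H2-Aa had 837 and 797 FPKM when warm and 278 and 112 in the cold (−1.84 ± 0.43, adjusted p = 0.0193), and Cd74, the invariant chain, 1409 and 1207 against 648 and 192 (−1.52 ± 0.51, adjusted p = 0.0343). In iBAT, where T lymphocyte genes were near 0, H2-Eb1 had 3.85 and 2.95 FPKM when warm and 11.0 and 11.2 in the cold (1.77 ± 0.41, adjusted p = 0.0600), while H2-Aa had 83.3 and 50.9 against 14.9 and 17.4.

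Some genes of the T lymphocyte lists kept a larger part of their warm level in the cold male sWAT library than the members did. Fyn kept 20.1%, Ets1 19.8% and Thy1 17.6%, against 0.171% for Ccr7 and 0.317% for Tcf7. The first 3 had between 2.21 and 14.5 FPKM in every iBAT library, while Ccr7 and Tcf7 had at most 0.240 and 0.306 there.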
